A study of Mus musculus with 58 samples.

Results

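The 3 D cyclins (Ccnd1, Ccnd2, Ccnd3), their kinases Cdk4 and Cdk6 and 5 inhibitors of these kinases (Cdkn1a, Cdkn1b, Cdkn1c, Cdkn2a, Cdkn2c) were followed in mouse hematopoietic stem cells (HSCs). The 10 genes were chosen by symbol, for their place in the machinery that admits a cell into the cell cycle, with earlier results of these data known. All 10 were found among the 55376 genes of the count files. All diet groups were male C57BL/6 mice, and HSCs were sorted from bone marrow as Lin- Sca-1+ c-Kit+ CD34- Flk2- CD150+ cells. Old mice of 24 to 26 months were fed ad libitum (OAL, n = 4), kept lifelong on a 40% caloric restriction begun at 3 to 4 months (OCR, n = 4), or returned to full feeding for 4 weeks after that restriction (OCRRF, n = 2). Young mice of 3 to 4 months were fed ad libitum (YAL, n = 4), restricted by 20% in a first week and by 40% for 3 further weeks (YCR, n = 4), or refed for 4 weeks afterwards (YCRRF, n = 4). For the knockdowns, HSCs of aged ad libitum mice were transduced with lentiviral shRNA and transplanted into lethally irradiated young female CD45.1 recipients, and CD45.2+ LSK CD48- CD150+ cells were sorted again. One shRNA against Kdr with a GFP reporter (n = 4) was set against a GFP scramble (n = 2), and a double knockdown that added 1 of 2 mCherry shRNAs against Bmpr1a (2 libraries each, n = 4) was set against a double scramble (n = 2). RNA was counted in 34 libraries, chromatin accessibility (ATAC-seq) in 4 OCR and 2 OCRRF libraries, the histone marks H3K4me3 and H3K27me3 in 2 OCR libraries each, and binding of the transcription factor PU.1 in 6 libraries, 2 from each old diet group. The ATAC-seq and histone libraries of OAL HSCs were not analysed here.

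A D cyclin binds Cdk4 or Cdk6, and the complex phosphorylates the retinoblastoma protein, which releases E2F factors to transcribe the genes of DNA replication. The Ink4 inhibitors, encoded by Cdkn2a and Cdkn2c, bind the kinases themselves, whereas the Cip/Kip inhibitors, encoded by Cdkn1a, Cdkn1b and Cdkn1c, bind assembled cyclin and kinase complexes. From an upstream start Cdkn2a also makes Arf, a different product from its inhibitor Ink4a. Its RNA was counted per gene, so Arf and Ink4a were not told apart. Most HSCs are quiescent: Cdkn1c is known for keeping them so, and the level of Cdk6 is known for setting how readily they leave quiescence. Cdkn2a is a textbook gene of senescence and is held silent by Polycomb, the system that deposits H3K27me3, in most young tissues.

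Sequencing depth was 11102898 to 36579392 gene counts per diet library and 35657999 to 44780217 per transplant library. Markers of the sorted cell type were present in every library. Kit stood at 1062 to 1873 CPM (counts-per-million of library size after normalization factors) and Procr at 167 to 287 CPM across diets. Group overlaps below refer to these scaled values, which differ from shares of all gene counts. Of the markers of other cell types, Cd3e (T cells) at 0 to 1.26 CPM, Cdh5 (endothelium) at 0 to 1.26 CPM and Gp1bb (platelets) at 0 to 0.710 CPM were at or near 0. Other genes of the same 3 lists were detected in every library, with Lck at 2.37 to 21.0 CPM, Tie1 at 219 to 374 CPM, Esam at 174 to 267 CPM, Pf4 at 15.6 to 98.6 CPM and Gp9 at 20.2 to 54.4 CPM. Markers of further cell types varied widely between diet libraries. Mpo (granulocytes) ran from 0.189 to 244 CPM, Car1 and Hbb-bs (erythroid cells) from 0.287 to 136 and 0.863 to 118 CPM, and Jchain (plasma cells) from 0 to 301 CPM. The study counts the diet groups in mice, but whether each library came from 1 animal or a pool is not stated in the sources used here, and the p-values below measure the spread between libraries. In bulk RNA, fewer cells of a type and less RNA per cell cannot be told apart. The labels and the methods name different library kits, and whether counting used strand is not given, so reads of genes on opposite strands may not have been separated where they overlap: 30.7% of the exon bases of Cdkn1c lie over Gm44732, 23.4% of those of Ccnd1 over LTO1 and 19.7% of those of Cdk4 over Tspan31, against under 8% for the other members.

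Sequences were drawn from the RefSeq promoter windows of GRCm38.p6 (mm10), which run from 250 bases before to 50 bases after a transcription start. Of the 10 genes, 7 had an entry (11 entries of 32851), and Ccnd1, Ccnd2 and Cdkn1c had none. The promoters below are shown because the histone signal at these starts differed most: Cdkn1b carried the highest H3K4me3, the starts of Cdkn2a the highest H3K27me3, the starts of Cdkn1a differed from each other, and Cdk6 had the greatest change of the members tested in restricted against ad libitum old mice. Capitals mark CpG dinucleotides, which cluster in many promoters, and each sequence reads 5′ to 3′ along its gene.
Cdk6, chr5:3343643-3343942, plus strand: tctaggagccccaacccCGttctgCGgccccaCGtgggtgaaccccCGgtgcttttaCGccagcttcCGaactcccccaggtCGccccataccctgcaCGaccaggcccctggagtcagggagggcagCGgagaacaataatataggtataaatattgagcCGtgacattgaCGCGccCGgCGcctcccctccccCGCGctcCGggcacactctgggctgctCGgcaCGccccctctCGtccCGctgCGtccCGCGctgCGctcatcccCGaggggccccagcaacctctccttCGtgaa
Cdkn1b, chr6:134920151-134920450, plus strand: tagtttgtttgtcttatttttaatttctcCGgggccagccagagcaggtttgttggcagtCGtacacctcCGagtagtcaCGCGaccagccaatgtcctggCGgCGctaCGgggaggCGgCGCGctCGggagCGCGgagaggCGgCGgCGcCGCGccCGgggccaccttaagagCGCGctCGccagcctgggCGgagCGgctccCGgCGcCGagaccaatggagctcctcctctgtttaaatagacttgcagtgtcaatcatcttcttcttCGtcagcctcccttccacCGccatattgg
Cdkn1a, upstream start, chr17:29090729-29091028, plus strand: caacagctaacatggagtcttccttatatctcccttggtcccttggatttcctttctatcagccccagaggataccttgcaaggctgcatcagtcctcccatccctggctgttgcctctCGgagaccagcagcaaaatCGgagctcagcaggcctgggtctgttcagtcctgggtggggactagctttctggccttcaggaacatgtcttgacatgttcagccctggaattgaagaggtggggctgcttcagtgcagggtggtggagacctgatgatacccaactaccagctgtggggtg
Cdkn1a, downstream start, chr17:29093519-29093818, plus strand: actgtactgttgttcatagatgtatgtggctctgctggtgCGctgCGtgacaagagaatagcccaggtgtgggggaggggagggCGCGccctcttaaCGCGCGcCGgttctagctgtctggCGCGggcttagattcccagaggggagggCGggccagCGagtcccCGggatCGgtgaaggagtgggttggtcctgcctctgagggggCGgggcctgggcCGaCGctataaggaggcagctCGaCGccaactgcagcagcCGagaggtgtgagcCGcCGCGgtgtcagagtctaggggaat
Cdkn2a, upstream start that makes Arf, chr4:89294570-89294869, minus strand: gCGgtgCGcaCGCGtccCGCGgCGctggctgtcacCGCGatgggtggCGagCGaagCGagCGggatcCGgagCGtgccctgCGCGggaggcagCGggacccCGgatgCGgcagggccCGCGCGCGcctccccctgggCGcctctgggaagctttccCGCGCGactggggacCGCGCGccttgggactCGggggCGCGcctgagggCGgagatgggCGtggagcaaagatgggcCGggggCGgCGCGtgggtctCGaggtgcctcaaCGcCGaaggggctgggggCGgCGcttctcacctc
Cdkn2a, downstream start that makes Ink4a, chr4:89282143-89282442, minus strand: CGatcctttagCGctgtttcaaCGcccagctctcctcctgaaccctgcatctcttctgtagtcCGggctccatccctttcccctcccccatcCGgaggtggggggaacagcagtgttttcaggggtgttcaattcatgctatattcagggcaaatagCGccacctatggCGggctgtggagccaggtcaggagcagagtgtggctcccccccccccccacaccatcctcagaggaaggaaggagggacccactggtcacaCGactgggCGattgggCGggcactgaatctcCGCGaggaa
The upstream Cdkn1a window held 2 CpGs and the downstream one 23, Cdkn1b held 30 and Cdk6 27. The Arf window of Cdkn2a held 45, more than 98.2% of all entries, and the Ink4a window 12, where the median entry held 7.

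The next 3 windows of 200 bases are distal sites that carry the chromatin results given below: the centres of the 2 PU.1 peaks found in all 6 libraries, and the centre of the 1 accessible region that passed the test. Capitals mark the core of the PU.1 motif, GGAAG, or its reverse complement CTTCC, and all 3 are printed on the plus strand.
Cdkn1a, PU.1 peak downstream, chr17:29111387-29111586: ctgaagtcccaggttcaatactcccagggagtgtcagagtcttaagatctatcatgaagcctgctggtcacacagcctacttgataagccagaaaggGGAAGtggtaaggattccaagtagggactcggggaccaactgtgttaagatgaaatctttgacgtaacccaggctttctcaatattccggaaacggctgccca
Ccnd2, PU.1 peak upstream, chr6:127162955-127163154: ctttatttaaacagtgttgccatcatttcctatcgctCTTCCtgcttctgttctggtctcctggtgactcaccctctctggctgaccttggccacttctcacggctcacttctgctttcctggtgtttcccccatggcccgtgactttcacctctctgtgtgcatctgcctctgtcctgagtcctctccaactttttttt
Ccnd1, accessible region upstream, chr7:144971162-144971361: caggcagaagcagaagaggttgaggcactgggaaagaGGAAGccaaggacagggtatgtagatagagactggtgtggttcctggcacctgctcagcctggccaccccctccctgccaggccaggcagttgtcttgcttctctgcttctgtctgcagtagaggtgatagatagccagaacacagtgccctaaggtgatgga
Each window held the core 1 time, and the longer word GAGGAAG occurred in the Ccnd1 window alone. Each GAGGAAG also contains GGAAG. Searched on both strands, GGAAG occurred in 89.0% to 90.4% of PU.1 peak windows and in 63.6% of all 131918 accessible windows, and GAGGAAG in 46.1% to 49.7% and 14.9%. A match describes the letters only.

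Levels were compared between genes as CPM per kilobase of exon. In OAL HSCs Cdk4 was the most abundant of the 10, at 102 ± 6.35 CPM per kb (SD, n = 4), followed by Ccnd2 at 48.1 ± 3.14. Cdkn1c at 32.9 and Ccnd3 at 31.9 overlapped each other, as did Ccnd1 at 10.6 and Cdk6 at 10.4. The remaining inhibitors were scarce: Cdkn2c stood at 7.32, Cdkn1b at 4.17, Cdkn1a at 2.19 and Cdkn2a at 0.113. This order held in broad terms in every diet group, with Cdk4 first, Ccnd2 second and Cdkn2a last. Ccnd1 exceeded Cdk6 in all 3 young groups without overlap, whereas their ranges overlapped in the 3 old groups, with the higher mean for Cdk6 in OCR and OCRRF HSCs. In the transplanted cells Cdk6 and Cdkn2c stood higher in the order than in OAL HSCs, at 23.0 and 19.7 CPM per kb in the double scramble. Per the methods, these cells also differed from the diet cells in sorting gate, RNA extraction, cDNA kit and sequencer. Their levels were scaled apart, and no test was made between the 2 experiments. Raw counts per library ran from 4197 to 25125 for Cdk4 but only from 60 to 311 for Cdkn1a, so the scarce inhibitors were measured less precisely.

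**Figure D1:**
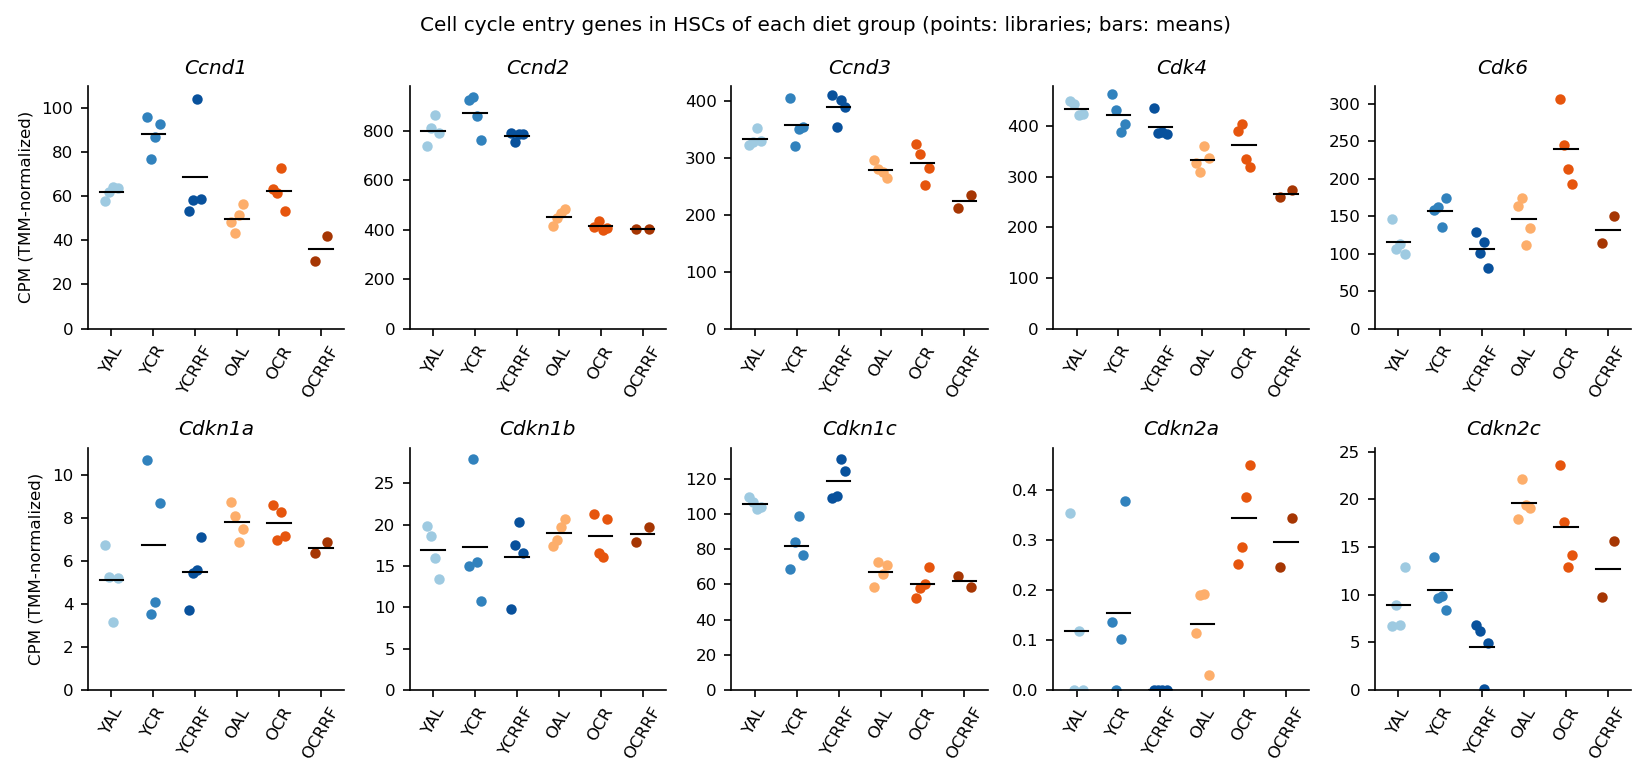
CPM (vertical axes, from 0) of each of the 10 genes in the 6 diet groups, with 1 point per library and a bar at the group mean. The 4 OCR libraries hold Cdk6 between 192 and 306 CPM, above the 4 OAL libraries at 111 to 174, and Ccnd2 lies at 737 to 937 CPM in young and at 400 to 483 CPM in old HSCs.

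The comparison of OCR with OAL asked how lifelong restriction changed old HSCs. Of the members, only the kinase Cdk6 and its partner Ccnd1 changed, and both rose. No inhibitor passed the test. A gene was called changed at a Benjamini-Hochberg adjusted p below 0.05 over all tested genes in edgeR's quasi-likelihood test with a fold above 1.2. That held for 2 of the 9 members tested, both upward, against 5.57% of all 27150 genes tested.

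Cdk6 (chr5:3341485-3531008) measured 163, 174, 111 and 134 CPM in the OAL libraries and 306, 245, 213 and 192 CPM in the OCR libraries. Every OCR library lay above every OAL library. The log2 fold change was 0.73 ± 0.12 (SE, 1.66-fold, adjusted p = 0.000178), and it passed the test under each alternative fit and without any single library. Ccnd1 (chr7:144929931-144939925), the D cyclin induced by mitogens in many cell types, measured 48.4, 43.1, 51.3 and 56.4 CPM in OAL and 63.1, 61.2, 72.5 and 53.04 CPM in OCR HSCs. The groups overlapped, since 1 OCR library lay within the OAL range. Its log2 fold change of 0.34 ± 0.10 passed the test (adjusted p = 0.0338), but not without OCR replicate 1, 2 or 3 or OAL replicate 1, 2 or 3, which gave log2 fold changes of 0.26 to 0.35 and adjusted p-values of 0.0671 to 0.135 in edgeR. It also missed the threshold in 1 fit of the 3 old groups (adjusted p = 0.0642).

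The other kinase and cyclins showed no change that passed. Cdk4 measured 310 to 359 CPM in OAL and 318 to 403 CPM in OCR HSCs (log2 fold change 0.14, 95% interval -0.04 to 0.31). Ccnd3 differed by 0.08 (-0.10 to 0.25) and Ccnd2 by -0.12 (-0.28 to 0.05) on the log2 scale. The groups overlapped for all 3 genes.

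Among the inhibitors, Cdkn1a, a target of the p53 protein, measured 6.87 to 8.74 CPM in OAL and 6.96 to 8.59 CPM in OCR HSCs, a log2 difference of 0.00 (-0.30 to 0.31). Cdkn1b, which is regulated largely by protein stability, differed by -0.01 (-0.26 to 0.24). Cdkn1c differed by -0.14 (-0.34 to 0.06) and Cdkn2c by -0.19 (-0.48 to 0.11). These 4 genes had overlapping groups. Cdkn2a was listed at 4, 6, 6 and 1 raw counts in OAL libraries and at 8, 10, 12 and 15 in OCR libraries, which do not overlap. It fell below the filter on low counts in this comparison, and with no filter its log2 fold change was 1.37 ± 0.74 (adjusted p = 0.518).

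Genes that act after the D cyclins rose together in OCR HSCs. Their lists were chosen with earlier results of these data known, and the study had reported Mki67, Cdk1 and Ccna2 as higher in OCR HSCs. All 7 later cyclins and CDKs passed upward, with a median log2 fold change of 1.35, against a median of 0.02 over all genes and 0.00 over the members. Ccnb2 at 2.13 and Ccnb1 at 1.48, the mitotic cyclins, Cdk1 at 1.44, their kinase, and Ccna2 at 1.35, the cyclin of S phase and G2, led the list. All 8 proliferation markers passed upward, with a median of 1.37, led by Top2a at 1.94 and Mki67 at 1.79. Of the 13 pocket proteins and E2F factors tested, 7 rose and 1 fell, with E2f8 at 1.65, E2f2 at 1.25 and E2f1 at 1.24 rising and E2f5 falling by 0.40. Among 12 CDK activators and inhibitor turnover factors, 6 rose and none fell, led by Cdc25c at 1.34 and Cks2 at 1.17. Of the other CDK inhibitors, Cdkn3, a phosphatase that acts on CDKs, rose by 1.82, while Cdkn2d did not pass and Cdkn2b was not tested. Of 14 p53 targets other than Cdkn1a, Btg2 rose by 0.67 and Perp fell by 0.49.

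Markers of the stem cell itself moved in the same comparison: 4 of 10 HSC markers fell, among them Fgd5 by 0.50, Ly6a by 0.47 and Procr by 0.46 on the log2 scale, and their summed level was 4618 to 5220 CPM in OAL and 4051 to 4679 CPM in OCR libraries. The granulocyte and monocyte markers summed to 241 to 315 CPM in OAL and 207 to 241 CPM in OCR libraries, and the abundant Prtn3 fell by 0.41, the 1 of 6 that passed, while the other 5 had positive values and the list's median was 0.76. Of 6 erythroid markers Hbb-bs fell by 2.22, Hba-a1 fell by 2.17 and Epor rose by 0.91. The plasma cell marker Jchain fell by 5.03 and Emcn, 1 of 4 endothelial markers, fell by 0.83. The part of cell composition in the change of Cdk6 and Ccnd1 was not tested.

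Refeeding after lifelong restriction was followed by lower expression of the same kinase and cyclin, and of 2 further members. Between OCRRF and OCR HSCs 4 of 10 members were called, all downward, against 3.41% of all 32577 genes tested. The members' median log2 fold change was -0.37, against 0.11 over all genes. This comparison shares the OCR libraries with the one above, so their opposite directions are not independent of each other.

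Cdk6 measured 114 and 150 CPM in the OCRRF libraries, below all 4 OCR libraries, and fell by 0.92 ± 0.15 on the log2 scale (adjusted p = 5.83e-05). Ccnd1 measured 30.5 and 42.0 CPM, also below all 4, and fell by 0.85 ± 0.14 (adjusted p = 0.000112). Cdk4 measured 259 and 274 CPM in OCRRF against 389, 403, 335 and 318 CPM in OCR HSCs and fell by 0.50 ± 0.12 (adjusted p = 0.0143). Ccnd3, the D cyclin with wide use in blood cells, measured 211 and 236 CPM against 324, 308, 253 and 282 CPM and fell by 0.45 ± 0.12 (adjusted p = 0.0348). None of these 4 genes had overlapping groups, and the share of all genes with separate groups was not counted. Ccnd2 did not pass, at 402 and 404 CPM against 400 to 434 CPM (log2 difference -0.10, -0.33 to 0.14).

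No inhibitor was called after refeeding. Cdkn2c came nearest, at 9.74 and 15.6 CPM in OCRRF and 13.0 to 23.6 CPM in OCR HSCs (log2 difference -0.50 ± 0.20, adjusted p = 0.192). Cdkn1a measured 6.37 and 6.86 CPM against 6.96 to 8.59 CPM (-0.29, -0.71 to 0.14). It lay just below without overlap in these scaled values, a gap that depended on the scaling. Cdkn1b and Cdkn1c differed by -0.05 and -0.01. Cdkn2a had 8 and 9 raw counts in OCRRF libraries.

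With 2 refed libraries, single libraries decided several of these calls. Without OCRRF replicate 1 Cdk6 alone was called among the members, without OCRRF replicate 2 Cdk6 and Ccnd1, and Ccnd3 was also lost without OCR replicate 2. When normalization factors were taken only from genes averaging 5 CPM or more, the median of all genes moved from 0.11 to 0.24, and Ccnd3 fell by 0.30 and no longer passed.

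The genes downstream fell with them: 7 of 7 later cyclins and CDKs (median -1.45), 8 of 8 proliferation markers (median -1.62), 6 of 13 pocket proteins and E2F factors and 3 of 12 activators passed downward, and none of these lists had a gene that passed upward. Ccnb2 at -1.97, Ccnb1 at -1.79 and Ccna2 at -1.64 led the first list and Birc5 at -1.97 the second. Both tested genes of the other CDK inhibitors fell, Cdkn3 by 1.64 and Cdkn2d, an Ink4 gene, by 0.62. Of the p53 targets only Ccng1 passed, falling by 0.45.

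Other cell types' markers moved as well. Of 4 megakaryocyte markers tested 3 fell, among them Pf4 by 1.06 and Gp5 by 1.02, and the list summed to 89.2 to 154 CPM in OCR and to 64.2 and 74.7 CPM in OCRRF libraries. Of 5 B cell and plasma cell markers 2 rose, among them Pax5 by 1.28, from summed levels of 2.56 to 5.14 CPM to 10.2 and 12.3 CPM. Background reads were measured as the sum of a set of receptor genes. This sum, taken per all gene counts, was 561 to 1257 CPM in OCR and 1161 and 1486 CPM in OCRRF libraries. HSC markers had 1 gene up, Ly6a by 0.46, and 1 down, Kit by 0.49. Of 6 erythroid markers Hba-a1 rose by 1.66, Hbb-bs rose by 1.56 and Epor fell by 0.82, and Emcn of the endothelial list rose by 0.57. The part of these in the members' changes was not tested.

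Refed old HSCs were also compared with old HSCs that had never been restricted. Of 9 members tested 4 were called, all downward, against 4.14% of all 31816 genes, and the members' median was -0.25 against 0.12 over all genes. Cdkn2c fell by 0.65 ± 0.16 (adjusted p = 0.0377) from 18.0, 22.2, 19.4 and 19.1 CPM in OAL libraries. Ccnd1 fell by 0.48 ± 0.12 (adjusted p = 0.0411), Ccnd3 by 0.34 ± 0.07 (adjusted p = 0.0269) and Cdk4 by 0.33 ± 0.07 (adjusted p = 0.0251). In the scaled CPM, both OCRRF libraries lay below all 4 OAL libraries for each of the 4 genes. The same held for Cdkn1a and Ccnd2, which were not called, and the share of all genes with separate groups was not counted. Cdk6 did not pass (-0.16, -0.45 to 0.13), and neither did the later cyclins and CDKs, 0 of 7, with a median of -0.05. Other genes of the cell cycle did pass: Pcna fell by 0.34 and Mcm3 by 0.33 among 8 proliferation markers, Tfdp1 by 0.36 and Rb1 by 0.27 among the pocket proteins and E2F factors, and Cdkn2d by 0.51, while Cdc25c rose by 0.78. Of the p53 targets Perp fell by 0.65 and Ccng1 by 0.27.

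Of 10 HSC markers 4 fell in refed against never restricted old HSCs, Hlf by 0.40 the most. Among markers of other cell types Mpo rose by 2.52, Ms4a1 by 1.45 and Pax5 by 1.41, while Gp5 fell by 0.60, Gp9 by 0.43 and Esam by 0.27. Their part in the members' values was not tested.

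These 4 calls depended on the scaling and on single libraries. None remained when the factors came from genes averaging 5 CPM or more, when only those genes were tested, or when the 3 old groups were fitted together, and leaving out 1 library left 0 to 2. In the first of these fits the median of all genes was 0.26, and the fall was 0.51 for Cdkn2c, 0.33 for Ccnd1 and 0.19 for both Cdk4 and Ccnd3. The background receptor genes summed to 1161 and 1486 CPM of all gene counts in OCRRF and 530 to 752 CPM in OAL libraries. Diet and background cannot be told apart in this comparison.

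**Figure D2:**
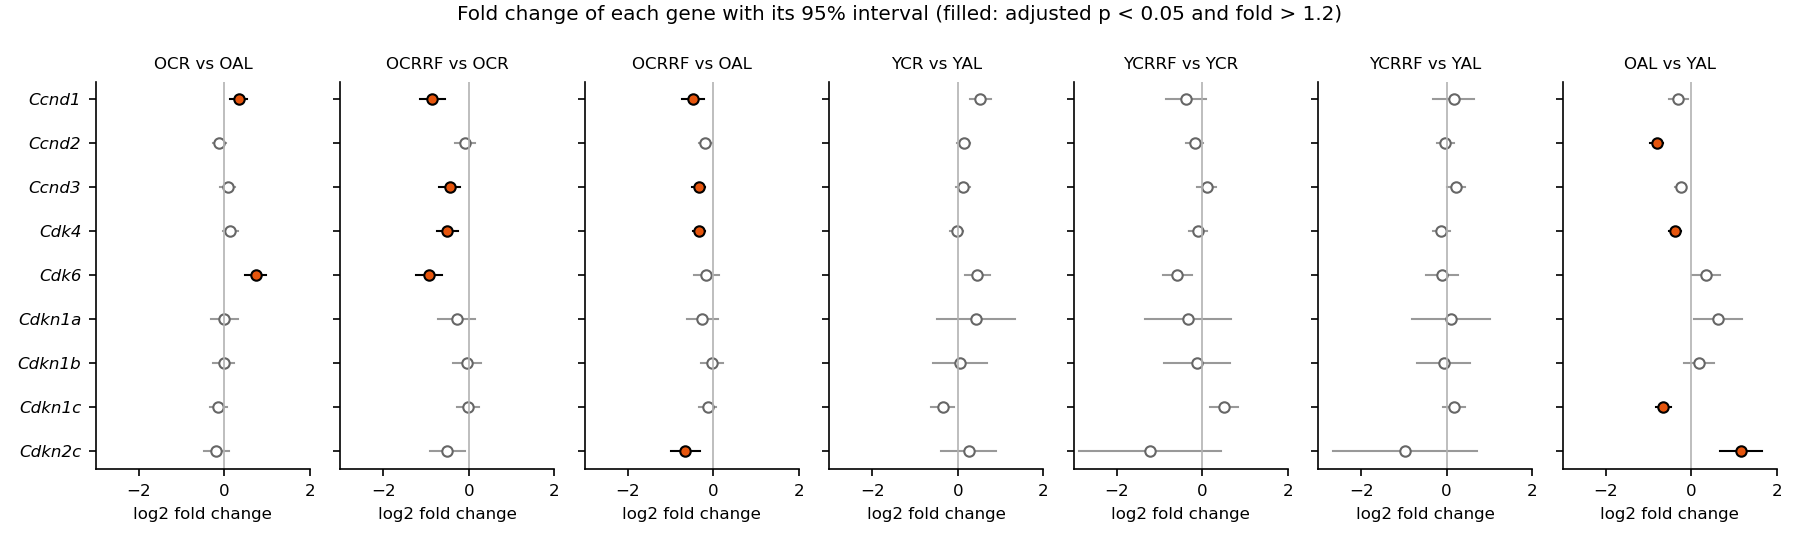
Log2 fold change (horizontal axes) of the 9 members tested in all 7 diet and age comparisons, with the 95% interval of the fit as a line. Filled points passed the test: 2 in OCR against OAL, 4 in OCRRF against OCR, 4 in OCRRF against OAL, 4 in OAL against YAL and 0 in the 3 young comparisons.

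The young groups asked the same of a short restriction. No member was called between YCR and YAL HSCs, where 0.257% of 18680 genes were called in all. Ccnd1 came nearest, at 57.6, 61.9, 64.0 and 63.6 CPM in YAL and 96.0, 76.8, 86.8 and 92.6 CPM in YCR HSCs. Every YCR library lay above every YAL library, and the log2 fold change was 0.53 ± 0.11 with an unadjusted p of 0.000542 and an adjusted p of 0.0906 in edgeR. DESeq2 called it (adjusted p = 0.000183). Cdk6 measured 99.7 to 146 CPM in YAL and 135 to 174 CPM in YCR HSCs, with overlapping groups and a log2 difference of 0.46 ± 0.13 (adjusted p = 0.239). Cdkn1c, the quiescence inhibitor, measured 103 to 110 CPM against 68.6 to 98.7 CPM, with every YCR library below every YAL library, and did not pass either (-0.35 ± 0.12, adjusted p = 0.379). The share of all genes with separate groups was not counted. Of the proliferation markers Top2a passed at 0.68, and no gene passed in the other cell cycle lists, although all 7 later cyclins and CDKs had positive values with a median of 0.50. B cell and plasma cell markers summed to 9.33 to 54.2 CPM in YAL and 12.9 to 357 CPM in YCR libraries, and none of the 5 passed. Their part in the members' values was not tested.

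The response to lifelong restriction in old HSCs was compared with that to short restriction in young HSCs in 1 fit. Age, length of restriction and library set differ together here and cannot be told apart. The difference between the OCR and the YCR response was called for 0 of 10 members and for 0.0424% of 28328 genes, with edgeR giving 1 member, Ccnd2, an unadjusted p below 0.05 (log2 difference -0.25 ± 0.10, adjusted p = 0.490). For Cdk6 the response in old HSCs exceeded that in young HSCs by 0.28 on the log2 scale (-0.16 to 0.73), and for Ccnd1 it was smaller by 0.18 (the interval of the difference runs from -0.51 to 0.15). Cdk1 at 1.41, Ccnb1 at 1.45 and Top2a at 1.27 did differ, with the larger rise in old HSCs.

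Refeeding of young mice changed no member by the test, either against YCR (0 of 9, with 0.0102% of 19535 genes called) or against YAL (0 of 9, with 0% of 19334 genes called and 714 genes at an unadjusted p below 0.05). Cdk6 measured 128, 101, 115 and 81.2 CPM in YCRRF libraries, all below the 135 to 174 CPM of YCR (-0.58 ± 0.15, adjusted p = 0.306). Cdkn1c measured 109 to 131 CPM, all above the 68.6 to 98.7 CPM of YCR (0.52 ± 0.15, adjusted p = 0.380). Cdkn2c, at 0.141 to 6.87 CPM, also lay below the 8.35 to 13.9 CPM of YCR (-1.22 ± 0.75, adjusted p = 0.830 in edgeR). How many of all genes had separate groups was not counted. Against YAL Cdk6 and Cdkn1c differed by -0.12 (-0.49 to 0.26) and 0.17 (-0.09 to 0.44). The YCRRF library of replicate 3 stood apart, with 104 CPM of Ccnd1 against 53.2 to 58.8 CPM in the other 3, and with 0.141 CPM of Cdkn2c, 4 raw counts, against 4.93 to 6.87 CPM. Without it the difference from YCR was -0.65 for Ccnd1 (-0.38 with it) and -0.81 for Cdkn2c (-1.22 with it), and neither passed.

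Cdkn2a was at 0 counts in all 4 YCRRF libraries. At 3 counts this allows up to 0.0820 to 0.270 CPM of all gene counts per library. In YAL it had 0 to 6 counts and in YCR 0 to 12, with 2 and 1 libraries at 0. These limits cover counting error only.

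Old and young HSCs fed ad libitum differed in 4 of 9 members tested, against 14.8% of 23525 genes. Ccnd2 (chr6:127125162-127152193) measured 737 to 863 CPM in YAL and 414 to 483 CPM in OAL HSCs (log2 fold change -0.81 ± 0.07, adjusted p = 7.74e-05). Cdkn1c (chr7:143458339-143461050) measured 103 to 110 CPM in YAL and 58.4 to 72.8 CPM in OAL HSCs (-0.65 ± 0.08, adjusted p = 0.00118). Cdkn2c (chr4:109660876-109667189), an Ink4 inhibitor, went the other way, from 6.74, 8.95, 6.87 and 13.0 CPM in YAL to 18.0, 22.2, 19.4 and 19.1 CPM in OAL libraries (1.16 ± 0.22, 2.24-fold, adjusted p = 0.00773). Cdk4 measured 421 to 448 CPM in YAL and 310 to 359 CPM in OAL HSCs (-0.37 ± 0.06, adjusted p = 0.00539). For all 4 genes the groups did not overlap. That was also so for Cdkn1a, Ccnd1 and Ccnd3, which were not called, and the share over all genes was not counted.

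Ccnd3 differed by -0.24 with an adjusted p of 0.0201 but a fold under 1.2. Cdkn1a, at 3.18 to 6.74 CPM in YAL and 6.87 to 8.74 CPM in OAL HSCs, had non-overlapping groups and missed the threshold in edgeR (0.63 ± 0.26, adjusted p = 0.125) while DESeq2 called it (adjusted p = 0.0321). Ccnd1 and Cdk6 differed by -0.30 and 0.34 and did not pass. Cdkn2a, at 0 to 6 counts in both groups, was not tested. Old HSCs also had lower later cyclins and CDKs (4 of 7 passed downward, median -0.72) and proliferation markers (6 of 8 downward, median -0.79), against a median of 0.05 over all genes.

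Library set moved with age here. The background receptor genes summed to 530 to 752 CPM of all gene counts in OAL and 109 to 220 in YAL libraries. Age and library set cannot be told apart. Granulocyte and monocyte markers had 2 of 6 genes passing downward and 1 upward in OAL (median -3.50), with summed levels of 241 to 315 CPM in OAL and 149 to 493 CPM in YAL libraries. Progenitor markers (4 of 6 down, 1 up), erythroid markers (3 of 6 down) and B cell markers (3 of 5 down, 1 up) moved too. Of 14 p53 targets 3 passed downward, Bbc3, Sesn2 and Aen, and 0 upward, while 8 of the 14 had positive values (median 0.13). With factors from genes averaging 5 CPM or more the median of all genes moved from 0.05 to 0.16 and Cdk4 differed by -0.26, a fold under 1.2.

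The knockdowns asked what Kdr and Bmpr1a, receptors for VEGF and BMP, do in aged HSCs. The targeted genes were checked first. Kdr measured 6.04 and 6.07 CPM in the GFP scramble and 1.93, 2.21, 3.28 and 2.03 CPM in the Kdr knockdown (log2 fold change -1.35 ± 0.25, adjusted p = 0.247 in edgeR). In the double knockdown Kdr measured 1.24, 0.556, 1.60 and 1.35 CPM against 3.98 and 4.63 CPM (-1.86 ± 0.37, adjusted p = 0.272). Bmpr1a measured 4.44 and 0.657 CPM with the first and 2.22 and 0.595 CPM with the second shRNA, against 5.21 and 4.43 CPM (-1.29 ± 0.72, adjusted p = 0.602). Kdr was thus lower in every knockdown library than in its scrambles, whereas 1 double knockdown library lay within the scramble range for Bmpr1a, and none of the 3 contrasts passed over all genes.

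No member was called in the Kdr knockdown, where 0.0149% of 20098 genes were called, nor in the double knockdown, where 0.00498% of 20072 genes were. Ccnd1 came nearest in the Kdr knockdown, at 40.4, 25.0, 35.4 and 33.6 CPM against 56.0 and 70.6 CPM in the scramble. The groups did not overlap, and the log2 fold change of -0.91 ± 0.17 had an unadjusted p of 0.000548 and an adjusted p of 0.250 in edgeR, while DESeq2 (adjusted p = 5.38e-05) and edgeR with no filter on low counts (adjusted p = 0.00846) called it. In the double knockdown Ccnd1 measured 33.9, 25.5, 42.3 and 19.6 CPM against 49.2 and 43.8 CPM, again without overlap (-0.61 ± 0.26, adjusted p = 0.505). Ccnd2 also had separate groups in the Kdr knockdown, at 513 to 643 CPM against 671 and 742 CPM (-0.25 ± 0.10, adjusted p = 0.502 in edgeR). How many of all genes had separate groups was not counted.

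Cdkn1c measured 15.6, 11.4, 30.7 and 16.8 CPM in the double knockdown against 30.0 and 34.3 CPM in its scramble, with 1 of the 4 in the scramble range (-0.78 ± 0.33, adjusted p = 0.50), and 20.6 to 41.5 CPM against 33.8 and 45.3 CPM in the Kdr knockdown (-0.44 ± 0.26, adjusted p = 0.654). Cdk6 differed by 0.03 (-0.50 to 0.55) in the Kdr and by -0.00 (-0.33 to 0.32) in the double knockdown. Cdk4 differed by 0.09 (-0.06 to 0.24) and 0.00 (-0.10 to 0.10), the narrowest intervals of the members. The double and the Kdr responses differed for 0 of 10 members and for 0% of 21250 genes, with 760 genes at an unadjusted p below 0.05 in edgeR.

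No gene of the 6 other cell cycle lists passed in either knockdown. In the Kdr knockdown all 7 later cyclins and CDKs (median log2 fold change 0.35) and all 8 proliferation markers (median 0.17) had positive values. In the double knockdown 3 of 7 (median -0.06) and 4 of 8 (median -0.004) did. Of 10 HSC markers, 9 had negative values in the Kdr and 7 in the double knockdown. Granulocyte and monocyte markers varied widely between these libraries, with summed levels of 159 to 236 CPM in the GFP scramble, 260 to 1349 CPM in the Kdr knockdown, 665 to 1164 CPM in the double scramble and 167 to 715 CPM in the double knockdown, and none of 6 passed. Their part in the values of Ccnd1 was not tested.

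**Figure D3:**
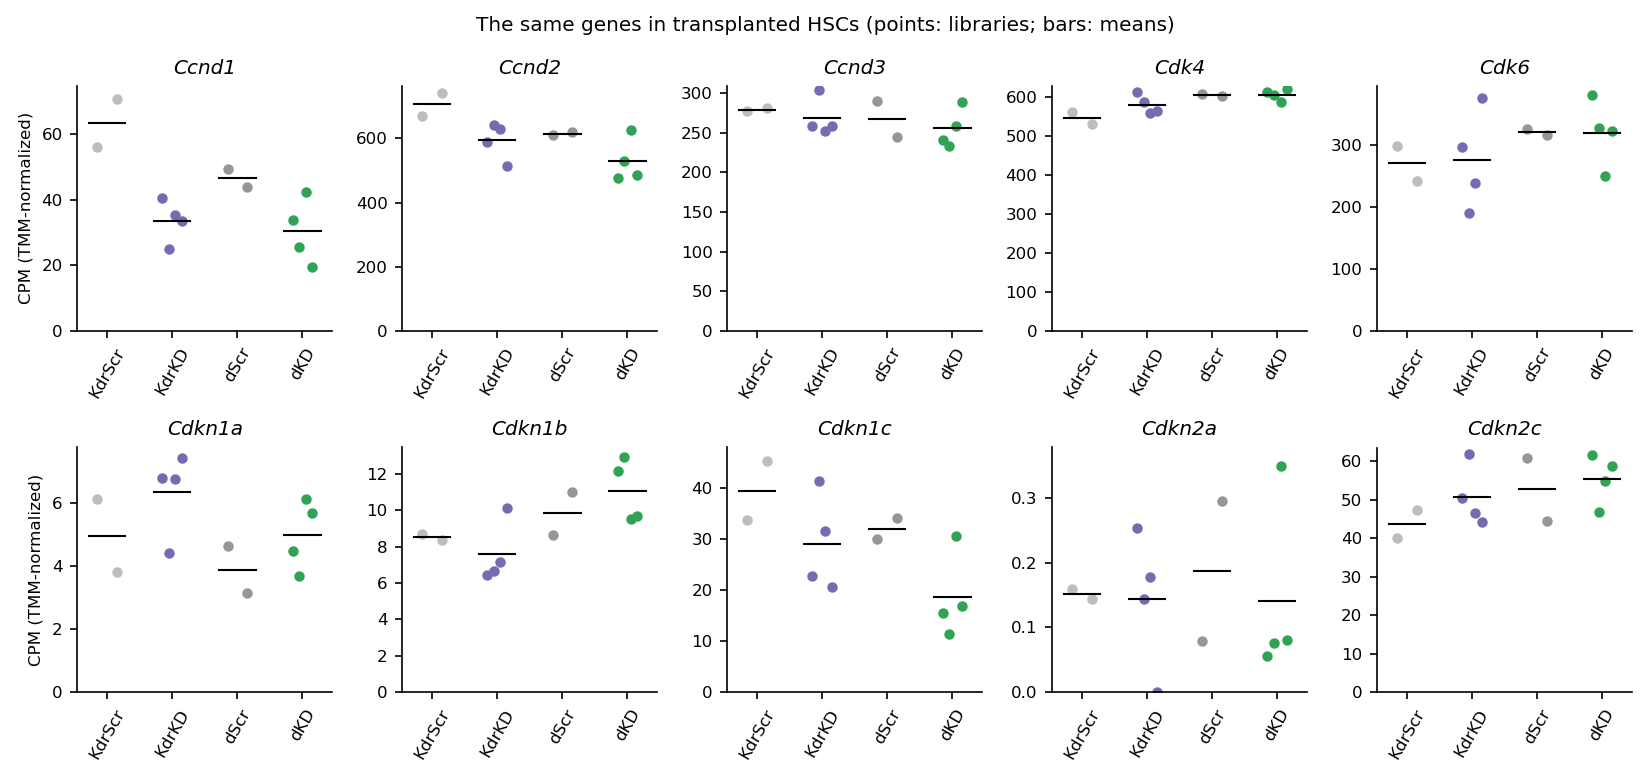
CPM (vertical axes, from 0) of the 10 genes in transplanted HSCs: GFP scramble (KdrScr), Kdr knockdown (KdrKD), double scramble (dScr) and Kdr and Bmpr1a double knockdown (dKD), with 1 point per library and a bar at the mean. Ccnd1 lies at 25.0 to 40.4 CPM in the Kdr knockdown and at 56.0 and 70.6 CPM in its scramble, while Cdk4 lies between 531 and 622 CPM throughout.

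H3K4me3, the mark of active promoters, and H3K27me3, the Polycomb mark, were read at the promoters in OCR HSCs as mean signal per base, in libraries scaled to equal read numbers, over windows of 750 and 2000 bp from the start. Most members had active promoters: the H3K4me3 mean of both libraries was 49.3 at Cdkn1b, 44.2 at Ccnd2, 40.9 at the stronger start of Ccnd3, 40.5 at that of Cdkn2c, 39.2 at Cdk4, 36.7 at Cdk6 and 32.7 at Ccnd1. The median over all 31552 promoters was 9.95, and Cdkn1b exceeded 99.1% of them. H3K27me3 was under its median of 0.308 at Cdkn1b, Ccnd1, Ccnd2, Ccnd3, Cdk4 and Cdk6, the promoters of the D cyclins and both kinases included.

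Cdkn2a stood apart by its Polycomb mark. Its Arf start had 6.04 and 6.62 of H3K27me3 in the 2 libraries, above 98.3% of promoters, and its Ink4a start a mean of 5.93, above 97.6%. H3K4me3 was 9.91 at the Arf start, near the median, and 3.47 at the Ink4a start. Cdkn2c carried both marks, with H3K27me3 of 0.923 at 1 start and 2.54, above 89.4% of promoters, at the other. Cdkn1c had 8.23 of H3K4me3 and 0.989 of H3K27me3. The downstream start of Cdkn1a had 16.3 of H3K4me3 and the upstream start, the window with 2 CpGs, 0.195. These are levels within OCR HSCs and no comparison between diets was made.

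**Figure D4:**
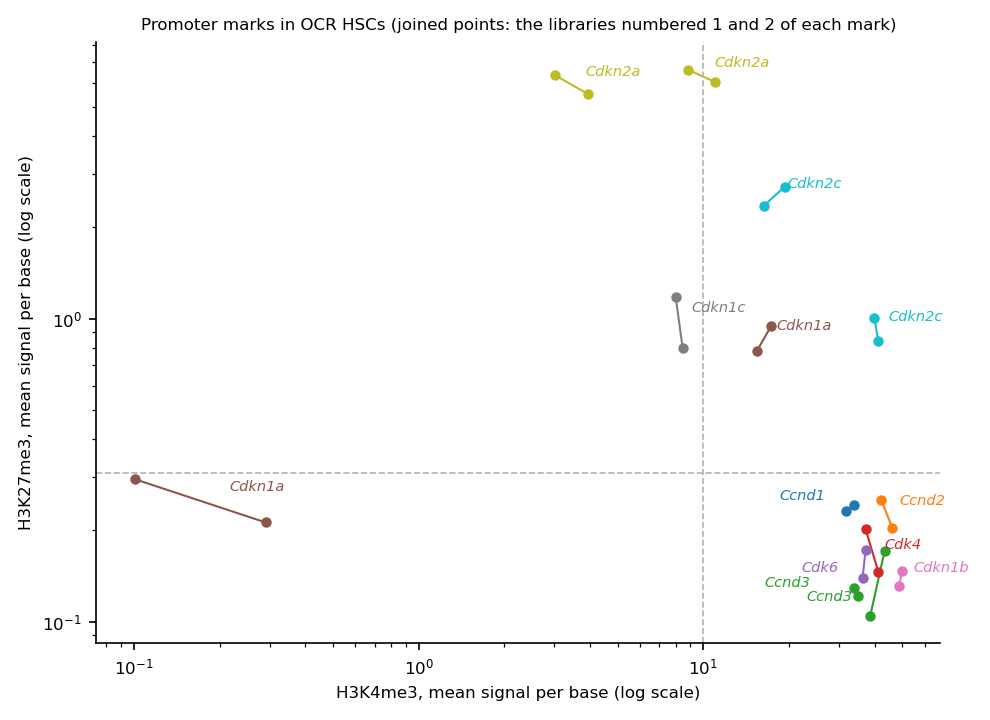
Mean H3K4me3 (horizontal) and H3K27me3 (vertical) signal per base at each of the 14 promoter rows of the members in OCR HSCs, both on log axes, with the 2 libraries of each mark joined by a line and dashed lines at the medians of all promoters. The 2 starts of Cdkn2a lie at the top, with H3K27me3 means of 6.33 and 5.93, and Cdkn1b lies farthest right, at an H3K4me3 mean of 49.3.

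Accessibility was compared between OCRRF and OCR HSCs over all peaks with edgeR, and a peak was called at an adjusted p below 0.05, a fold above 1.5 and a mean log2 CPM above 1.5. Around the members lay 176 peaks, counting promoters, gene bodies and 50 kb on either side of a start, of which 168 were tested. Of these 168, 1 was called, against 273 of all 123372 peaks tested (0.221%). A count of 1 does not set the members apart from that share. The called region, chr7:144970898-144971627 (mm10), lies 31029 bp upstream of the Ccnd1 start, and its central window is printed above. It measured 7.02, 6.43, 5.32 and 4.45 CPM in OCR and 2.43 and 3.56 CPM in OCRRF libraries, without overlap, and fell by 0.97 ± 0.23 on the log2 scale (adjusted p = 0.0384). DESeq2 did not call it, and it was lost without OCR replicate 1, OCR replicate 2, OCRRF replicate 1 or OCRRF replicate 2.

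The promoter peaks did not change by the test. At Ccnd1 the promoter peak measured 7.49 to 8.32 CPM in OCR and 8.69 and 9.24 CPM in OCRRF HSCs (0.16 ± 0.16), so the promoter and the upstream region differed in sign. The Cdk6 promoter peak differed by 0.13 ± 0.05 (adjusted p = 0.305), higher in both refed libraries. Of the 68 tested peaks in promoters and gene bodies the lowest adjusted p, 0.0674, belonged to a peak inside Cdk6 at chr5:3432616-3433932, named after its values were seen, with 20.7 to 22.0 CPM in OCR and 26.4 and 29.2 CPM in OCRRF libraries (0.37 ± 0.10). The promoter peaks of Cdkn1b, Cdkn2c and Cdk4 differed by 0.01, 0.02 and 0.01. At Cdkn2a the Arf peak measured 24.8 to 30.9 CPM in OCR and 22.8 and 26.2 CPM in OCRRF libraries and the Ink4a peak 2.86 to 3.73 CPM against 2.42 and 2.94 CPM.

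**Figure D5:**
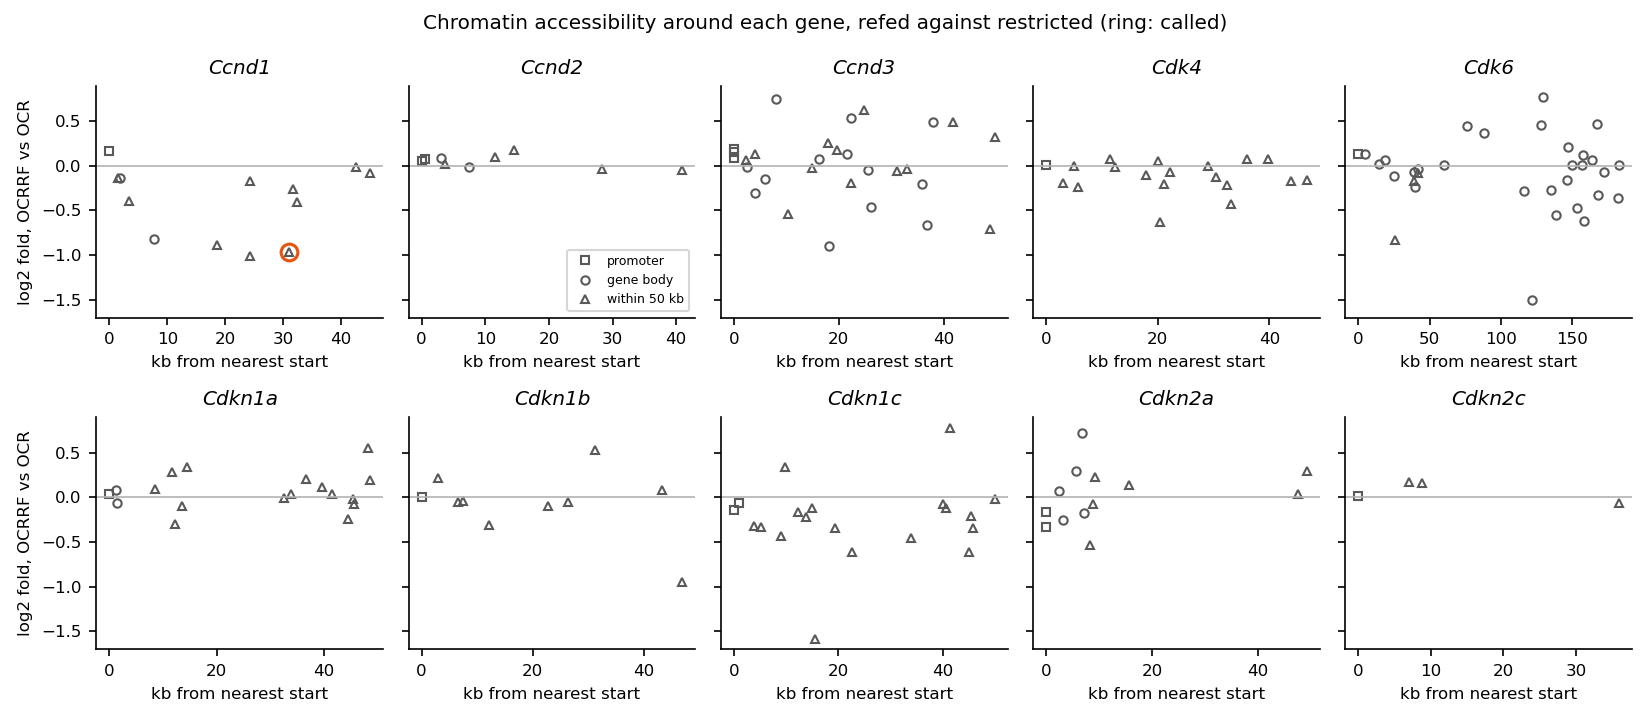
Log2 fold change of accessibility in OCRRF against OCR (vertical axes) of each tested peak against its distance in kb from the nearest start of the gene (horizontal axes). The ring marks the called region 31029 bp from the Ccnd1 start, at -0.97.

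PU.1, a transcription factor of the myeloid and lymphoid lineages, had no peak at any promoter of the 10 genes in any of the 6 libraries. A peak downstream of Cdkn1a (summits 13567 to 13593 bp from the nearest start, past the end of the gene) was called in all 6, with fold enrichments over the local background of 16.6 and 14.0 in OAL, 18.8 and 16.9 in OCR and 15.9 and 10.1 in OCRRF libraries. A peak upstream of Ccnd2 (summits at -12001 to -11984 bp from the start) was also called in all 6, at 12.4 and 12.6, 14.1 and 11.2, and 10.4 and 9.41. For both sites the OCRRF library of replicate 2 was the lowest. Accessible peaks covered both sites and did not change by the test (-0.10 ± 0.21 at Cdkn1a and 0.10 ± 0.17 at Ccnd2).

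Cdkn1c had a peak in both OCR libraries, with summits at -12690 and -12596 bp from the start and fold enrichments of 7.18 and 6.20, and none in the other 4. The peaks around members numbered 4 and 2 in OAL, 7 and 4 in OCR and 3 and 3 in OCRRF libraries, and all peaks of these libraries numbered 3046 and 2900, 5464 and 3852, and 2817 and 2262. The OCR libraries had the most of both, peaks were called in each library separately, and no test of these counts was made.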

How the data were processed

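The files covered RNA-seq, ATAC-seq and ChIP-seq of histone marks and PU.1 in mouse HSCs and were used as deposited. Per the labels and the methods, the authors trimmed RNA reads with Trim Galore and cutadapt, aligned them to mm10 with STAR and counted GENCODE M22 genes with featureCounts, so that the deposited counts were raw reads per gene. The labels name a SMARTer total RNA kit and the methods a SMART-Seq kit. Strand and multi-mapping settings of the counting are not given in the sources used here. ChIP-seq and ATAC-seq reads were aligned with BWA, deduplicated and cleared of blacklisted regions. The ATAC-seq counts deposited were raw reads per consensus peak, and whether reads were shifted for Tn5 is not given in the sources used here. The histone signal was scaled by the authors to the same number of reads per library and averaged per promoter row in windows that read 750 bp for H3K4me3 and 2000 bp for H3K27me3 in the files. PU.1 peaks were called by the authors with MACS2 in each library separately, and the deposited lists give the fold enrichment ratio, a p-value and q-value as −log10, and a score that is 10 times the −log10 q.

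Groups came from the sample labels, except that the PU.1 libraries given here as OAL are titled OWT there and are listed as OAL by the study. No 2 libraries of a group were duplicates (smallest chi-square per gene 8.17). ATAC-seq libraries held 15721335 to 19558148 counts in peaks. The ChIP-seq files hold no read numbers, and those the study lists were not used here. Genes were tested with edgeR 4.0.16 (filterByExpr, TMM factors, quasi-likelihood F-test, only the libraries of each comparison in the fit) in R 4.3.3, with Benjamini-Hochberg adjustment over all tested genes. Intervals are 95% intervals of the fitted log2 fold change. Log2 CPM used a prior count of 2, whereas CPM of single libraries had none. The double knockdown pooled both Bmpr1a hairpins. DESeq2 1.42.0 served as an alternative, beside other size factors, filters, thresholds and fits and the removal of each library. The edgeR steps were tested on simulated data. Sequences and annotations were read with Python 3.11.15 and pysam 0.24.0.

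All 10 members were looked up in every comparison. Each member called was named, and of the members not called only some were. From other lists the counts were given, with up to 4 called genes of the greatest change. The members and lists were chosen with earlier results of these data known, so their directions are no independent evidence.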

Additional observations from a re-analysis of the deposited data

Results flagged for a closer look

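Of 79 groups of 4 libraries examined, 5 held a library whose gap to its nearest neighbour exceeded Dixon's critical value for 4 values. The gap was taken as a share of the group's range in log2 CPM. The 79 took each member except the scarce Cdkn2a in each RNA group of 4. They also took the members' promoter peaks and the called region in the 4 OCR ATAC-seq libraries, and all 5 were RNA values. Chance alone passes about 1 group in 20. All but the last given here were in refed young HSCs (YCRRF). The share was 0.906 for Cdkn2c, with 0.141 CPM in replicate 3 against 4.93 to 6.87 CPM in the others, and 0.850 for Ccnd1, with 104 CPM in replicate 3 against 53.2 to 58.8 CPM. It was 0.940 for Ccnd2, with 755.8 CPM in replicate 2 against 787 to 789 CPM, and 0.901 for Cdk4, with 434 CPM in replicate 1 against 383 to 388 CPM. In the Kdr knockdown it was 0.848 for Ccnd3, with 304 CPM in replicate 2 against 252 to 259 CPM. With genes of low counts filtered, edgeR called no member in the comparisons of these groups, with or without these libraries. With no filter it called Ccnd1 in the Kdr knockdown.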

How the results depend on the processing

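No member's value that passed the test changed sign under any alternative, whereas values near 0 that did not pass could, such as Cdkn1c in OCRRF against OCR, at -0.01 and up to 0.12. Among members, the 2 calls of OCR against OAL became 1 in 1 fit of the 3 old groups, without Ccnd1. The 4 calls of OCRRF against OAL became 0 in that fit, with factors taken from genes averaging 5 CPM or more, and with only those genes tested. DESeq2 gave 1 call (Ccnd1) in YCR against YAL and 1 (Ccnd1) in the Kdr knockdown, where removing the filter on low counts also gave 1, and it gave 0 member peaks in place of 1 in the ATAC-seq comparison. Leaving out 1 library gave 1 to 2 calls in OCR against OAL, 1 to 4 in OCRRF against OCR, 0 to 2 in OCRRF against OAL, 4 to 6 in OAL against YAL and 0 to 1 in the ATAC-seq comparison, and 0 in each of the other comparisons. The cause was not tested. The replicate numbers did not pair the libraries: deviations of same-numbered libraries correlated at -0.293 to 0.185, and in no comparison did every pair exceed 0.1. With the replicate number as a block, OCR against OAL kept 1 call (Cdk6) and lost Ccnd1 (adjusted p = 0.0517), OCRRF against OCR had 5, adding Cdkn2c, OCRRF against OAL had 4, with Cdk6 in place of Ccnd1, and the ATAC-seq comparison had 2, the Ccnd1 region and a peak in Ccnd3, while the block changed no call among members elsewhere. Counts over all genes depended more on the tool: with DESeq2, 1110 became 2391 in OCRRF against OCR, 1316 became 4577 in OCRRF against OAL, 48 became 527 in YCR against YAL, 3486 became 7955 in OAL against YAL, 2 became 378 in YCRRF against YCR, 0 became 52 in YCRRF against YAL, and 3 became 261 and 1 became 332 in the Kdr and the double knockdown. With no filter on low counts, OCRRF against OAL gave 2684 genes, YCR against YAL 368, OAL against YAL 6671, YCRRF against YCR 275, the Kdr knockdown 82 and the double knockdown 19. Among genes averaging 5 CPM or more, OCRRF against OAL gave 55, YCR against YAL 110 and OAL against YAL 1743. In the fit of all old groups OCRRF against OAL gave 108 genes, without OCRRF replicate 1 it gave 38, and without OCRRF replicate 1 OCRRF against OCR gave 352. The block gave 3437 genes in OCRRF against OCR, 2080 in OCRRF against OAL, 7 in YCR against YAL, 1651 in OAL against YAL and 26 in the Kdr knockdown, and 764 peaks in place of 273. Within 10 kb of a start in place of 50 kb, PU.1 peaks at members numbered 0 to 2 per library. Taking the median over all promoter rows of a gene moved H3K4me3 to 8.27 at Cdkn1a, 6.69 at Cdkn2a and 29.2 at Cdkn2c. Cdkn2a, at 0 to 15 raw counts per diet library, was limited by depth.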
